A study of Homo sapiens with 30 samples.

Results

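Mitosis genes here are 38 genes of entry into mitosis, the spindle and cell division, chosen by name: the cyclin and kinase genes of G2 and M phase, the chromosomal passenger and spindle checkpoint genes, centromere, kinetochore and kinesin genes, and genes of cytokinesis. All 38 were found once each among the 57992 genes of the RNA-Seq table through their Ensembl identifiers. No measured value entered their choice, although earlier results of these data were known when the list was drawn up.

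The study treated 2 human cell lines with Omomyc, a miniprotein derived from the dimerization domain of MYC that pairs with MYC, MAX and itself. HCT116 is a colon carcinoma line that the labels describe as having stabilized MYC, and Ramos is a Burkitt's lymphoma line with a translocated MYC gene. HCT116 cells were untreated or received 2 or 10 μM Omomyc for 6 or 24 h, and Ramos cells were untreated or received 0.5 or 2.5 μM for 6 or 24 h, with 3 libraries in each of the 10 groups. Each line has 1 untreated group with no time point, so time in culture and treatment cannot be told apart in comparisons with it. In the study's methods HCT116 cells received Omomyc together with ProteoJuice, a protein transfection reagent, and whether the untreated cells received it is not stated, so the effects of the reagent and of Omomyc cannot be told apart. The methods name no such reagent for Ramos cells in the RNA-Seq experiment. The lower HCT116 dose is 2 μM in the labels and 2.5 μM in the methods. The libraries of all 4 groups titled 24 h, in both lines, carry a time tag of 4 h, and the titles were followed, so every result at 24 h rests on them. Nothing in the labels says that replicates came from separate cultures, so p-values measure the spread between these libraries, which may be technical.

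Cells enter mitosis when CDK1, bound to cyclin A or B, is switched on by CDC25 phosphatases, and PLK1 and Aurora A reinforce that switch. The spindle is then built by kinesins and microtubule-binding proteins, the checkpoint kinases hold back the anaphase-promoting complex (APC/C) until kinetochores are attached, and CDC20 activates the complex to destroy cyclin B. Most of these genes are transcribed in a wave late in the cell cycle, through promoters with CHR and CCAAT elements bound by the DREAM and MYB-MuvB complexes, FOXM1 and NF-Y. In bulk RNA, fewer cells in G2 and M phase and less RNA of these genes per cell cannot be told apart.

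Values are RPKM, reads scaled for gene length and for the reads of the library, as deposited. The sequencing depth behind them is unknown, so no counting interval can be given. Fold changes are differences of log2(RPKM + 0.5) between group means, and a gene was called where limma's moderated test gave a Benjamini-Hochberg adjusted p under 0.05 over all genes tested. All 38 members passed the expression filter, a mean of at least 0.5 RPKM, in every comparison. The Pearson correlation of log2 values over genes within groups was between 0.965 and 0.994, and no pair of the 30 replicate pairs was identical. The third 10 μM, 6 h library of HCT116 cells stood apart, with a summed RPKM of 1051041 against 791845 and 795720 in the other libraries of its group. The count of members called at 10 μM and 6 h and some gene values are also given without it. All other 10 μM, 6 h values include it. The labelled lines expressed most but not all of their defining markers. In Ramos cells the group means of the 6 B cell markers ran from 41.1 RPKM for PAX5 to 611 RPKM for CD79B, and those of the 7 epithelial markers did not exceed 0.496 RPKM (KRT8). In HCT116 cells EPCAM, KRT8, KRT18, CDH1 and CDX2 were expressed, while KRT20 reached 0.691 RPKM at most and VIL1 0.0268 RPKM. All of these are group means. In HCT116 cells the group means of the B cell markers did not exceed 1.78 RPKM (CD22). Those of the T cell markers CD2, CD3D and CD3E did not exceed 0.635 RPKM in either line, and of the fibroblast markers COL1A2 and DCN had group means under 0.05 RPKM while COL1A1 reached a group mean of 6.11 RPKM in HCT116 cells.

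Before treatment, all 38 mitosis genes were well expressed in both lines, and most were higher in HCT116 cells. Levels in untreated HCT116 cells ran from 13.8 ± 0.744 RPKM (SD, n = 3) for CENPE, a kinetochore motor, to 161 ± 8.40 RPKM for CCNB1, the gene of cyclin B1. In untreated Ramos cells they ran from 4.28 ± 0.552 RPKM for CDC25C to 105 ± 6.07 RPKM for CCNB1, so the same gene headed both lines. Of the 38 members, 26 were called higher and 5 lower in HCT116 than in Ramos cells, where 45.7% and 39% of all genes tested were called in those directions. The median difference was 0.33 for the members and 0.09 for all genes, in log2 units.

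ANLN, which encodes the cleavage furrow protein anillin, stood at 63.1, 58.9 and 60.3 RPKM in untreated HCT116 and at 15.5, 17.99 and 16.4 RPKM in untreated Ramos libraries, a log2 difference of 1.84 (SE 0.0630, adjusted p = 1.47e-07). CDC25B, a phosphatase that activates CDK1, stood at 48.8, 43.2 and 48.3 against 12.2, 12.8 and 15.04 RPKM (1.78, SE 0.0891, adjusted p = 1.16e-06). The lines did not overlap for either gene. The members lower in HCT116 cells differed by less. NDC80, an outer kinetochore subunit, stood at 29, 30.3 and 31.6 against 34.6, 42.2 and 37.02 RPKM (-0.32, SE 0.07775, adjusted p = 0.00682), and CCNA2, the gene of cyclin A2, at 47.4, 44.9 and 45.1 against 57.1, 52.9 and 56.7 RPKM (-0.28, SE 0.04725, adjusted p = 0.00108). With each library scaled to an equal sum of RPKM all 38 members were higher in HCT116 cells, NDC80 by 0.25 and CCNA2 by 0.30, and the median difference of all genes moved from 0.09 to 0.65.

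The promoters of the members share sequence features that the choice of the list did not use. RefSeq windows from 250 bases before to 50 bases after the gene start (GRCh38.p14) matched 33 of the 38 members by symbol. AURKA, TPX2, BIRC5, TTK and UBE2C had no entry. The words TTTGAA and TTCGAA (CHR elements), CCAAT (the NF-Y box) and CACGTG (the E box that MYC and MAX bind) were searched on both strands, and each word was counted also where it shared letters with another. A CHR word of either form was in 25 of 33 windows (75.8%), against 16.4% of the 35116 windows of all genes, and TTTGAA alone was in 24 (72.7% against 15.2%). CCAAT was in 25 windows (75.8% against 34.6%), and CHR and CCAAT together were in 21 (63.6% against 6.38%). The E box was in 5 windows, those of CCNB1, PLK1, CENPE, CENPF and ANLN (15.2% against 7.26%). The plot of motif shares sets these side by side.

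**Figure D1:**
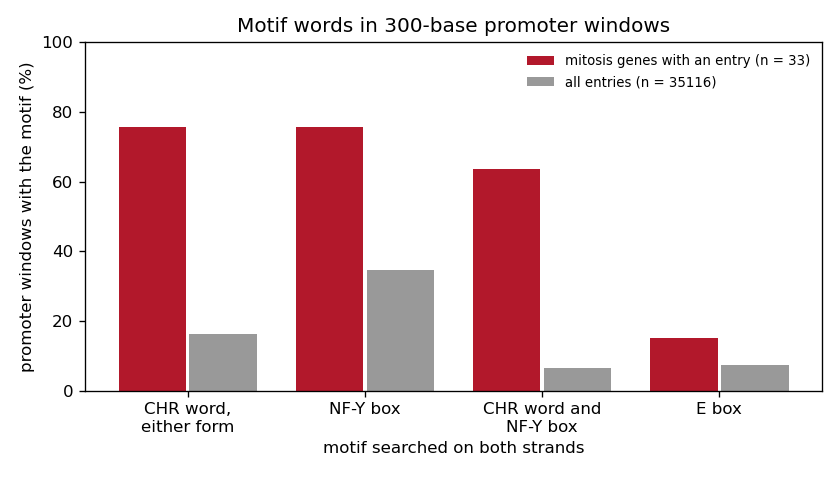
Bars give the percentage of 300-base promoter windows (y axis) that hold each motif word (x axis, either strand), red for the 33 mitosis genes with an entry and grey for all 35116 entries. The CHR word and the NF-Y box together were in 63.6% of the members' windows and in 6.38% of all windows.

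The windows of 4 members are printed because their changes at 6 h differed between the lines. CDK1 and TOP2A fell in HCT116 cells and not in Ramos cells, and CCNB1 and CDC20 fell in Ramos cells and not in HCT116 cells. All are written 5′ to 3′ on the gene's own strand, with CHR words, CCAAT words and E boxes, or their reverse complements, in capitals. CDK1 lies at chr10:60778081-60778380 (plus strand), TOP2A at chr17:40417847-40418146 (minus strand), CCNB1 at chr5:69166900-69167199 (plus strand) and CDC20 at chr1:43358731-43359030 (plus strand), each window spanning the start of the gene.
CDK1: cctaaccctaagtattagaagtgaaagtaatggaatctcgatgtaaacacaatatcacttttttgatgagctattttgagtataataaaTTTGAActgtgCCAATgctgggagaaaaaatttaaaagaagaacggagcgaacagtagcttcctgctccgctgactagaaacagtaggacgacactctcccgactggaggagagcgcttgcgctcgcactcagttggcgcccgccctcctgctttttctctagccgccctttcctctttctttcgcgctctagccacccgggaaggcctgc
TOP2A: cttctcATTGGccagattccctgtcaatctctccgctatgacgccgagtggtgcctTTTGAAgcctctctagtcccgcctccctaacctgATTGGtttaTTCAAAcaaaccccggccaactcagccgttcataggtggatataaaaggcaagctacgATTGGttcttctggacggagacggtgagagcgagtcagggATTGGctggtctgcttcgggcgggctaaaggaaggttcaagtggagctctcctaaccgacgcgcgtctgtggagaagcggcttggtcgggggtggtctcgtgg
CCNB1: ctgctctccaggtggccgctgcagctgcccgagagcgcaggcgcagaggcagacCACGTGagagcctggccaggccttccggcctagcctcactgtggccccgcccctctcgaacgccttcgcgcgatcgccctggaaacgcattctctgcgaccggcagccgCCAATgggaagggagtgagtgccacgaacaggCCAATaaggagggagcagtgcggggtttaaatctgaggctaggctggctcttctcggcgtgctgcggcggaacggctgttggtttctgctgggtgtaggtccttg
CDC20: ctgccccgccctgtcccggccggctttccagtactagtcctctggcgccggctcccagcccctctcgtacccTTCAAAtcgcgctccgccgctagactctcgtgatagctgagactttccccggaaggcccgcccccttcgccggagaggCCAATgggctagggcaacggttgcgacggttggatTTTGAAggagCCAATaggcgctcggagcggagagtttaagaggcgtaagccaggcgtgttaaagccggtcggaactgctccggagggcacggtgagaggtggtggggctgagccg
The CDK1 window holds TTTGAA and CCAAT once each, 161 and 150 bases before the start. The TOP2A window holds the CHR word at 194 and 151 bases and CCAAT, on the other strand, at 244, 160, 93 and 53 bases. The CDC20 window holds the CHR word at 178 and 65 bases and CCAAT at 100 and 55 bases. The CCNB1 window holds an E box 196 bases and CCAAT 87 and 55 bases before the start, and neither CHR word is in it. The windows of TOP2A and CDC20 hold the same words, and those of CDC25B, CDC25C and KIF2C hold no CHR word, CCAAT or E box. Other starts of the members were not searched, so a word missing from a window does not show that the gene's promoter lacks it.

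In HCT116 cells most mitosis genes fell within 6 h of Omomyc. At 2 μM, 28 of 38 members were lower and 2 higher than in untreated cells, where 31.8% and 15.5% of all genes tested were called in those directions. At 10 μM, 27 were lower and 0 higher, against 21.2% and 8.84% of all genes, and limma gave 29 members an unadjusted p under 0.05. The median log2 fold change of the members was -0.43 at 2 μM and -0.54 at 10 μM, beside -0.12 and -0.11 for all genes. In the 2 μM, 6 h libraries the members summed to between 1695 and 1778 RPKM, against 2042 to 2144 RPKM in the untreated libraries, with no overlap. The plot of library medians shows every 6 h library of HCT116 cells below every untreated one. The 2 doses share their untreated libraries.

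**Figure D2:**
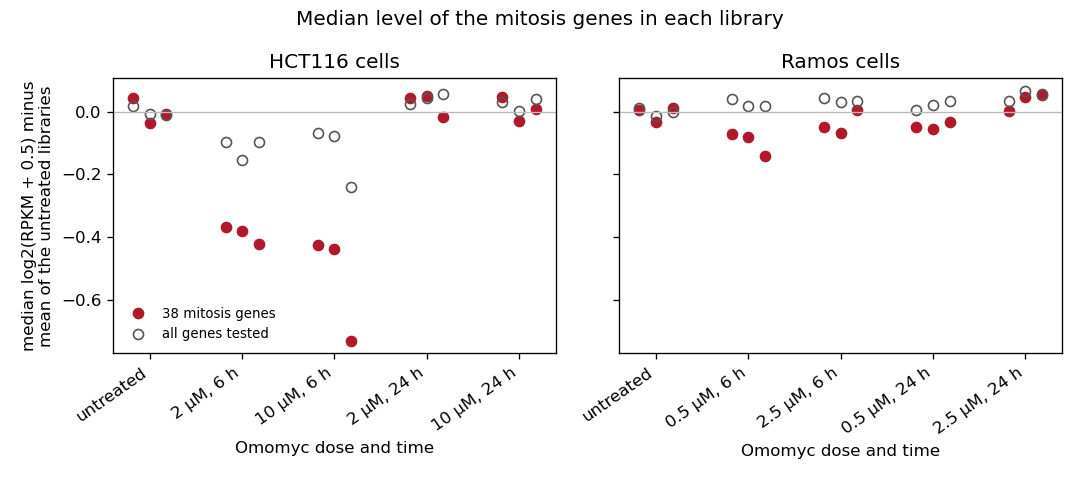
Each point is 1 library: the median over the 38 mitosis genes (red) or all genes tested (open grey) of log2(RPKM + 0.5) minus the mean of the untreated libraries of that line (y axis), by Omomyc dose and time (x axis). The 2 μM, 6 h libraries of HCT116 cells lie between -0.42 and -0.37 and the 10 μM, 6 h libraries between -0.73 and -0.43, while the lowest Ramos library lies at -0.14.

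Library 3 of the 10 μM, 6 h group was the lowest, at a member median of -0.73 against -0.43 and -0.44 in the others of its group, and its median over all genes was -0.24 against -0.07 and -0.08. Without it 34 members were called at 10 μM, 32 lower and 2 higher, with a median of -0.43, and without untreated library 1, 2 or 3 the count was 13, 14 and 14. At 2 μM, leaving out 1 library gave 26 to 32 calls. With each library scaled to an equal sum of RPKM the members split 0 higher and 34 lower at 2 μM and 0 and 35 at 10 μM, as the median over all genes moved to -0.42 and -0.56, and with median-ratio scaling 4 and 21, and 0 and 22. Fold changes went with gene span. Across the 14477 genes with a span at 2 μM, Spearman's rho of fold change with gene span was -0.25, and across the 38 members it was -0.41. At 10 μM both were -0.27. These genes share libraries and the values are a description. With the trend on gene span removed, an alternative chosen after seeing the data, 21 members were lower and 3 higher at 2 μM and 22 lower and 0 higher at 10 μM.

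TOP2A, which encodes the topoisomerase that untangles sister chromatids, fell most at 2 μM. Its level was 81.1, 78.5 and 80.5 RPKM in untreated cells, 36.2, 30.3 and 31.5 RPKM at 2 μM and 31.96, 34.9 and 26.8 RPKM at 10 μM. Every treated library was far below every untreated one, with log2 fold changes of -1.28 (SE 0.0747, adjusted p = 7.76e-06) and -1.35 (SE 0.1165, adjusted p = 0.000572). CDC25C, a phosphatase that activates CDK1 at mitotic entry, stood at 15.3, 14.2 and 12.3 RPKM in untreated cells, 6.09, 6.68 and 4.97 RPKM at 2 μM and 5.57, 5.67 and 3.16 RPKM at 10 μM. The groups did not overlap, and the fold changes were -1.17 (SE 0.119, adjusted p = 0.000116) and -1.48 (SE 0.2115, adjusted p = 0.00309), or -1.23 at 10 μM without library 3.

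Of the CDK1 group, CDK1 and both CDC25 genes fell at 2 μM, while the cyclin genes did not. CDK1 stood at 103, 102 and 106 RPKM in untreated cells, 66.7, 61.7 and 55.3 RPKM at 2 μM and 50.1, 59.4 and 70.2 RPKM at 10 μM (-0.76, SE 0.0749, adjusted p = 0.000101, and -0.80, SE 0.132, adjusted p = 0.00513). CCNB1 went the other way at 2 μM, from 170.3, 156 and 156 to 217, 201 and 194 RPKM, a log2 fold change of 0.34 (SE 0.0695, adjusted p = 0.00331). At 10 μM CCNB1 stood at 198, 194 and 131 RPKM and was not called (0.09, adjusted p = 0.701), but without library 3 it was higher by 0.29 (adjusted p = 0.00514). CCNA2 was not called at 2 μM (-0.01) or 10 μM (-0.20), and CCNB2 was called lower at 10 μM (-0.35) and not at 2 μM (-0.08). CDC20, the APC/C coactivator, rose from 139, 126 and 132 to 166, 176 and 172 RPKM at 2 μM (0.37, SE 0.0635, adjusted p = 0.00141) and stood at 164, 146 and 98.3 RPKM at 10 μM (0.01, library 3 included). Scaled to an equal sum of RPKM, the rises of CCNB1 and CDC20 at 2 μM were no longer called (0.01, adjusted p = 0.966, and 0.03, adjusted p = 0.805), and CCNB1 at 10 μM turned to -0.40 (adjusted p = 0.222).

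PLK1 and Aurora A are kinases that drive mitotic entry and spindle assembly. PLK1 stood at 38.6, 34.7 and 36.2 RPKM in untreated cells, 35.3, 39.3 and 41.6 RPKM at 2 μM and 40.2, 36.6 and 23.9 RPKM at 10 μM, and the groups overlapped at both doses (0.08, adjusted p = 0.401, and -0.15, adjusted p = 0.572). Without library 3 the 10 μM value of PLK1 was 0.07 (adjusted p = 0.4155). AURKA fell from 45.02, 43.1 and 42.7 RPKM to 38.4, 37.2 and 33.3 RPKM at 2 μM and 32.7, 35.5 and 30.4 RPKM at 10 μM (-0.26, SE 0.0703, adjusted p = 0.0128, and -0.41, SE 0.0978, adjusted p = 0.0195). The fall at 2 μM was not called with median-ratio scaling (-0.12, adjusted p = 0.216), with the trend on gene span removed (-0.18, adjusted p = 0.06785) or without untreated library 1 (-0.24, adjusted p = 0.0592). At 10 μM it was not called when any one of the untreated libraries was left out. TPX2, which activates Aurora A on spindle microtubules, fell at both doses (-0.34 and -0.54), and BORA, which helps Aurora A activate PLK1, was called at 10 μM (-0.38) and not at 2 μM (-0.21).

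**Figure D3:**
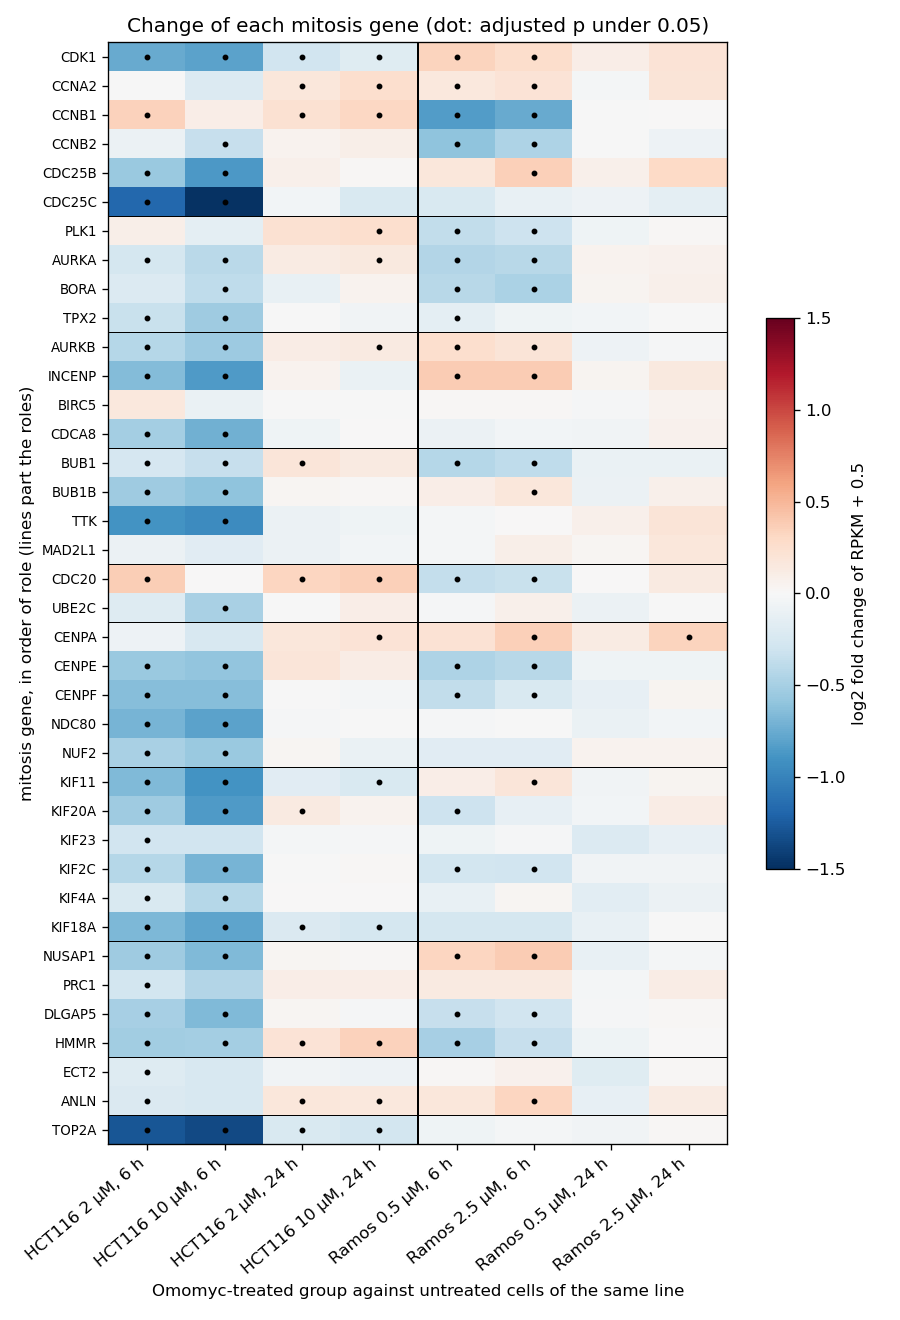
Colour gives the log2 fold change of RPKM + 0.5 of each of the 38 mitosis genes (rows, grouped by role) in each Omomyc-treated group against untreated cells of the same line (columns), and a black dot marks an adjusted p under 0.05. At 6 h 34 of 38 rows are below 0 for HCT116 cells with 2 μM, led by TOP2A and CDC25C at -1.28 and -1.17, the Ramos columns at 6 h hold both colours, and the columns at 24 h are pale.

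Most structural genes of the spindle fell in HCT116 cells at 6 h. All 6 kinesin genes fell at 2 μM and 5 of 6 at 10 μM, with medians of -0.48 and -0.74. Over all genes tested 31.8% were called lower at 2 μM and 21.2% at 10 μM, and with lists this short the counts are given as a description. KIF11, the motor that pushes spindle poles apart, went from 33.4, 30.9 and 31.7 RPKM to 21.1, 19.4 and 19.8 RPKM at 2 μM and 17.7, 17.5 and 15.6 RPKM at 10 μM (-0.66, adjusted p = 0.000111, and -0.90, adjusted p = 0.00129), with no overlap. All 4 microtubule-associated genes fell at 2 μM (NUSAP1 -0.53, HMMR -0.52, DLGAP5 -0.49 and PRC1 -0.27). Of the 5 centromere and kinetochore genes 4 fell at both doses, NDC80 by 0.69 and 0.80 on the log2 scale, while CENPA, the histone that marks centromeres, was not called (-0.07 and -0.24).

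Control genes fell in part. Their counts are a description too, beside 31.8% of all genes called lower at 2 μM and 21.2% at 10 μM. Of the 4 chromosomal passenger genes, INCENP (-0.65 and -0.85), CDCA8 (-0.50 and -0.72) and AURKB (-0.43 and -0.55) fell at both doses, and BIRC5, which encodes survivin, was not called (0.16 and -0.10). TTK, the checkpoint kinase MPS1, went from 43.6, 42.6 and 45.8 RPKM to 23.8, 23.97 and 22.2 RPKM at 2 μM and 21.6, 24.6 and 21.7 RPKM at 10 μM (-0.90, adjusted p = 2.15e-05, and -0.94, adjusted p = 0.00109), again with no overlap. BUB1 (-0.26 and -0.35) and BUB1B (-0.53 and -0.60) fell as well, and MAD2L1 did not pass the test (-0.09 and -0.17). UBE2C, the ubiquitin-conjugating enzyme of the APC/C, was called at 10 μM (-0.48) and not at 2 μM (-0.20). The cytokinesis genes ECT2 and ANLN fell least of the 28 at 2 μM (-0.19 and -0.22), and neither was called at 10 μM (-0.24 and -0.24).

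By 24 h the mitosis genes of HCT116 cells stood near their untreated levels. From 6 to 24 h, 27 members rose and 0 fell at 2 μM (30.9% and 9.85% of all genes), and 22 rose and 0 fell at 10 μM (5.8% and 2.06%), with 28 and 31 at an unadjusted p under 0.05 in limma. The sum over members was 2137 to 2183 RPKM at 2 μM and 2126 to 2249 RPKM at 10 μM, against 2042 to 2144 RPKM untreated. These comparisons share the 6 h libraries with those above. CDC25C and TOP2A rose most. TOP2A rose to 68.3, 72.9 and 63.2 RPKM at 2 μM (1.05, SE 0.0866, adjusted p = 0.0001255) and 67.8, 65 and 65.3 RPKM at 10 μM (1.08, SE 0.123, adjusted p = 0.00307). CDC25C rose to 13.02, 14.9 and 12.6 RPKM (1.13, SE 0.118, adjusted p = 0.000381) and to 11.9, 12.7 and 10.8 RPKM (1.25, SE 0.207, adjusted p = 0.0143). All 24 h libraries of both genes lay above all 6 h libraries. The 10 μM count was unsteady, although all 38 members had a positive sign. It was 2, 3 and 3 without 24 h library 1, 2 or 3, 12 without 6 h library 1 and 31 without 6 h library 3. With no filter on low values it was 9, and with a replicate block 5. CDC25C at 10 μM was not called when any one of the 24 h libraries was left out. Median-ratio scaling gave 22 higher and 3 lower at 2 μM and 14 higher and 0 lower at 10 μM.

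Small departures from untreated levels were measured at 24 h, in both directions. At 2 μM 7 members were higher and 3 lower (16.6% and 10.8% of all genes), and at 10 μM 9 were higher and 4 lower (19.5% and 15.7%), shares close to those of all genes. Member and all-gene medians were 0.03 and 0.04 at 2 μM and both 0.02 at 10 μM. Fold changes at 24 h also went with gene span. Spearman's rho was -0.23 for members and -0.21 for all genes at 2 μM, and -0.43 and -0.24 at 10 μM. For 10 against 2 μM at 24 h it was -0.59 and -0.14. These values are a description, and no fit at 24 h had the trend removed. CDC20 was the highest, at 163, 154 and 182 RPKM for 2 μM and 173, 173 and 164 RPKM for 10 μM (0.33, SE 0.0658, adjusted p = 0.00785, and 0.36, SE 0.05345, adjusted p = 0.000942). CCNB1 stood at 189.6, 175 and 198 RPKM and at 206, 206 and 188 RPKM (0.22, adjusted p = 0.0224, and 0.31, adjusted p = 0.00318). Both genes lay above every untreated library at both doses. At 10 μM HMMR, a spindle protein, reached 51.9, 52.96 and 51.5 RPKM against 39.7, 41.9 and 41.5 RPKM untreated (0.34, adjusted p = 0.000619), CCNA2 reached 57.1, 55.3 and 51.97 RPKM (0.26, adjusted p = 0.00480) and PLK1 44.1, 42.9 and 43.2 RPKM (0.25, adjusted p = 0.00600). PLK1 at 2 μM stood at 41.8, 39.2 and 47.8 RPKM and was just outside the threshold (0.23, adjusted p = 0.0501). AURKA was at 48.9, 46.7 and 47.2 RPKM for 2 μM and 50.6, 47.02 and 47.5 RPKM for 10 μM (0.12, adjusted p = 0.0696, and 0.15, adjusted p = 0.0467), and the 10 μM call was lost when any one library was left out. The count at 2 μM was 3, 5 and 6 without untreated library 3, 2 or 1 and 4 without 24 h library 1, and that at 10 μM was 8 without untreated library 2. With all groups in 1 fit the counts were 0 at 2 μM and 3 at 10 μM, so every call at 2 μM was lost, and at 2 μM 6 were called with no filter on low values. With each library scaled to an equal sum of RPKM 0 members were higher at 24 h at either dose and 5 were lower at each, and with median-ratio scaling 1 was higher and 3 lower at 2 μM and 5 and 5 at 10 μM.

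Of the members, TOP2A, KIF18A, KIF11 and CDK1 were the 4 lower at 24 h with 10 μM. TOP2A was lower by -0.28 (SE 0.0448, adjusted p = 0.00152) in log2 terms. KIF18A, a motor that aligns chromosomes, stood at 28.5, 26.1 and 27.01 RPKM against 35.6, 30.7 and 32.1 RPKM (-0.26, adjusted p = 0.01175), KIF11 at 28.04, 27.2 and 26.2 RPKM (-0.23, adjusted p = 0.008395) and CDK1 at 96.9, 91.9 and 85.9 RPKM (-0.18, adjusted p = 0.0285). Each of the 4 lay below every untreated library. At 2 μM CDK1 stood at 82.8, 92.5 and 79.5 RPKM (-0.29, adjusted p = 0.00801), and TOP2A was lower by -0.23 (adjusted p = 0.0159). The CDK1 call at 10 μM was lost when any one untreated library, or 24 h library 2 or 3, was left out, and the TOP2A call at 2 μM without untreated library 1 or 3.

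In Ramos cells at 6 h the 38 genes split, some falling and others rising. At 0.5 μM 14 were lower and 5 higher (9.73% and 13.8% of all genes), and at 2.5 μM 12 were lower and 10 higher (10.7% and 17.3%). The member medians were -0.07 and -0.02, beside 0.02 and 0.03 for all genes. The 2 doses share their untreated libraries. With each library scaled to an equal sum of RPKM the split was 4 higher and 7 lower at 0.5 μM and 14 and 5 at 2.5 μM, as the median of all genes moved to 0.11 and 0.16, and with median-ratio scaling 4 and 14, and 7 and 12.

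Cyclin B led the fall in Ramos cells. CCNB1 went from 112, 103 and 100 RPKM to 61.5, 60.3 and 53.9 RPKM at 0.5 μM and 62.98, 60.6 and 61.04 RPKM at 2.5 μM (-0.83, SE 0.0640, adjusted p = 0.000124, and -0.76, SE 0.0495, adjusted p = 3.95e-05). CCNB2 went from 53.5, 47.98 and 50.8 RPKM to 31.7, 35.01 and 33.2 RPKM and to 37.1, 35.9 and 37.1 RPKM (-0.60, adjusted p = 0.000291, and -0.46, adjusted p = 0.000396). Neither gene overlapped with the untreated libraries, and both falls were called with either other scaling.

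AURKA, PLK1 and BORA fell in the same libraries as deposited, the PLK1 falls not with an equal sum of RPKM. AURKA went from 34.1, 34.8 and 36.4 RPKM to 25.9, 25.4 and 26.1 RPKM at 0.5 μM and 26.6, 25.6 and 26.5 RPKM at 2.5 μM (-0.44, adjusted p = 0.000583, and -0.41, adjusted p = 0.000481). PLK1 went from 30.5, 28.3 and 34.6 RPKM to 24.1, 24.4 and 23.4 RPKM and 24.7, 24.6 and 25.7 RPKM (-0.37, adjusted p = 0.008075, and -0.31, adjusted p = 0.0149), and with an equal sum of RPKM it stood at -0.27, adjusted p = 0.0856, and -0.17, adjusted p = 0.219. BORA went from 15.1, 12.2 and 12.6 RPKM to 9.01, 9.24 and 10.04 RPKM at 2.5 μM (-0.47, SE 0.0905, adjusted p = 0.00588). No treated library of these 3 genes reached an untreated one. Also lower at both doses were CDC20 (-0.36 and -0.33), the checkpoint kinase gene BUB1, the kinetochore genes CENPE and CENPF, the kinesin gene KIF2C and the spindle genes DLGAP5 and HMMR. The PLK1 call at 2.5 μM was lost without 6 h library 1 or 2.

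Other members rose in the same libraries. INCENP, the scaffold of the chromosomal passenger complex, went from 27.6, 27.3 and 30.98 RPKM to 38.8, 34.3 and 39.3 RPKM at 0.5 μM and 36.8, 39.8 and 35.9 RPKM at 2.5 μM (0.38, adjusted p = 0.00590, and 0.38, adjusted p = 0.00317). NUSAP1, which bundles spindle microtubules, went from 86.4, 79.2 and 77.7 RPKM to 102, 105 and 109.5 RPKM at 2.5 μM (0.38, SE 0.0515, adjusted p = 0.00110). CENPA reached 18.6, 18.4 and 17.96 RPKM against 15.2, 13.2 and 14.1 RPKM (0.36, adjusted p = 0.004445) and CDC25B 16.8, 16.8 and 17.9 RPKM against 12.2, 12.8 and 15.04 RPKM (0.36, adjusted p = 0.01285). All 4 genes lay above every untreated library at 2.5 μM. CDK1 rose to 118, 118 and 106 RPKM at 0.5 μM and 111, 106 and 109.9 RPKM at 2.5 μM, from 94.3, 80.8 and 97.8 RPKM (0.33, adjusted p = 0.0146, and 0.26, adjusted p = 0.0209), so CDK1 and its cyclin B partners moved apart. The CDK1 call was lost without 6 h library 1 or 2 at 0.5 μM and without any one 6 h library at 2.5 μM, and the CDC25B call without 6 h library 3. CCNA2 and AURKB rose at both doses, and ANLN, BUB1B and KIF11 were called higher at 2.5 μM. TOP2A was not called at either dose (-0.06 and -0.03).

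**Figure D4:**
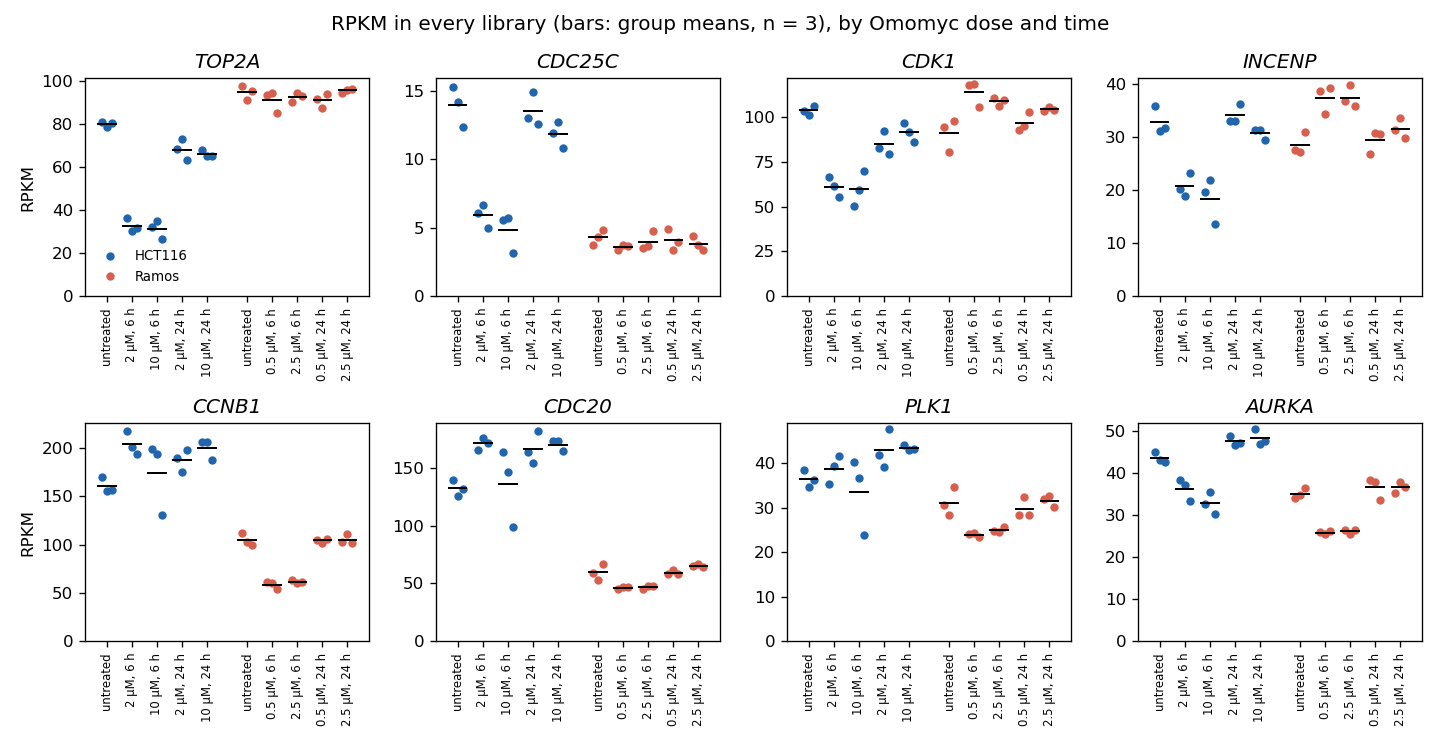
RPKM (y axis, from 0) of 8 mitosis genes in every library by Omomyc dose and time (x axis), blue for HCT116 and red for Ramos cells, with bars at the group means (n = 3). TOP2A and CDC25C dropped in HCT116 cells at 6 h, and CCNB1 dropped to between 53.9 and 63.0 RPKM in Ramos cells at 6 h while the lowest HCT116 library stood at 130.8 RPKM.

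By 24 h few members of Ramos cells differed from untreated. At 0.5 μM limma called 0 of 38 members (0.0146% of all genes higher and 0% lower), with 3 at an unadjusted p under 0.05, and no other tool was run. At 2.5 μM it called 1 higher and 0 lower (3.3% and 1.31%), with 8 at an unadjusted p under 0.05. The 1 was CENPA, at 17.3, 18.4 and 18.2 RPKM (0.33, SE 0.0679, adjusted p = 0.03065). That call was lost with median-ratio scaling (0.28, adjusted p = 0.0553), without untreated library 2 and without any one of the 24 h libraries, 3 members were called without untreated library 3, and all groups in 1 fit called 4, no filter on low values called 0, and an equal sum of RPKM called 21 members higher, the median of all genes having moved from 0.05 to 0.24. At 2.5 μM CCNB1 stood at 103, 111 and 101 RPKM (0.01), PLK1 at 31.9, 32.6 and 30.1 RPKM (0.02), AURKA at 35.3, 37.9 and 36.7 RPKM (0.06) and CDK1 at 103, 106 and 104 RPKM (0.20, adjusted p = 0.121). At 0.5 μM the values were 105, 102 and 106 RPKM for CCNB1, 28.3, 32.3 and 28.5 RPKM for PLK1, 38.3, 37.9 and 33.6 RPKM for AURKA and 92.9, 94.97 and 103 RPKM for CDK1. CCNB1 and PLK1 overlapped with the untreated libraries at both doses.

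From 6 to 24 h the members of Ramos cells changed in both directions. At 0.5 μM 14 rose and 9 fell (11.9% and 13.5% of all genes), and at 2.5 μM 16 rose and 4 fell (12.7% and 10.4%). CCNB1 rose by 0.83 (SE 0.0552, adjusted p = 2.97e-05) and 0.77 (SE 0.0415, adjusted p = 1.94e-05) on the log2 scale, CCNB2 by 0.59 at 0.5 μM and BORA by 0.55 at 2.5 μM. NUSAP1 fell by 0.43 and 0.40, and INCENP by 0.34 and 0.24, the latter not called without 24 h library 3. With an equal sum of RPKM the split at 0.5 μM was 10 higher and 4 lower. These comparisons share the 6 h libraries with those above.

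Between doses, at most 1 member was called in a comparison as deposited. In HCT116 cells limma called 0 members between 10 and 2 μM at 6 h (0% and 0% of all genes) and 0 at 24 h (0.14% higher and 0.0399% lower), with 1 and 2 members at an unadjusted p under 0.05. The differences at 6 h ran from -0.36 to 0.01 and 35 of 38 were negative. Against untreated cells, the member medians were -0.43 and -0.44 in 10 μM libraries 1 and 2 and -0.73 in library 3. In the 2 μM libraries they ran from -0.42 to -0.37. How far the lean toward negative differences rested on library 3 was not tested. In Ramos cells it called 0 members between 2.5 and 0.5 μM at 6 h (0.185% and 0.244%), with 8 at an unadjusted p under 0.05. At 24 h it called 1 higher and 0 lower (2.39% and 1.86%), with 13 at an unadjusted p under 0.05. The 1 was CCNA2, at 60.4, 64.6 and 66.2 RPKM for 2.5 μM against 51.4, 55.5 and 55.7 RPKM for 0.5 μM (0.23, SE 0.0506, adjusted p = 0.0379), without overlap. That call was lost when any one library other than 0.5 μM library 3 was left out, and 2 members were called without the latter. With an equal sum of RPKM 16 members were higher and 0 lower in that comparison, with all groups in 1 fit 4 were called, and with no filter on low values 0. The missing calls do not show that the doses act alike.

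The lines differed in how the mitosis genes responded at 6 h. The difference of the fold changes, HCT116 with 2 μM minus Ramos with 2.5 μM, was called for 26 of 38 members, 22 lower and 4 higher in HCT116 cells, where 28.4% and 12.2% of all genes were called in those directions. The doses are the closest pair and are not equal. Of the members called in each line, 7 fell in both, 8 fell in HCT116 and rose in Ramos cells, 2 rose in HCT116 and fell in Ramos cells, and 0 rose in both. Of the 11374 genes tested in both lines, 4.13%, 5.49%, 1.45% and 3.75% fell in these 4 classes. The 8 were CDK1, CDC25B, AURKB, INCENP, BUB1B, KIF11, NUSAP1 and ANLN, and all 8 differences were called. The 2 were CCNB1 and CDC20.

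**Figure D5:**
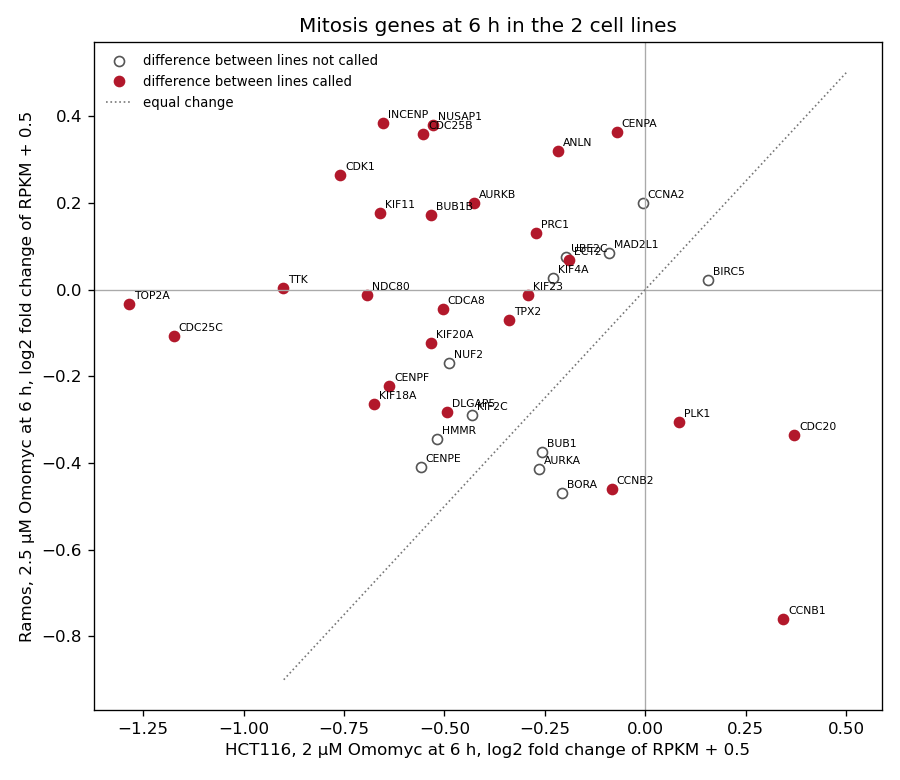
Each point is 1 of the 38 mitosis genes, with the log2 fold change of RPKM + 0.5 at 6 h in HCT116 cells given 2 μM Omomyc (x axis) and in Ramos cells given 2.5 μM (y axis), filled where the difference between the lines was called, and the dotted line marks equal change. CCNB1, at 0.34 and -0.76, and CDC20 lie far to the lower right, while TOP2A, at -1.28 and -0.03, lies far to the left.

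CCNB1 differed by 1.10 (SE 0.0826, adjusted p = 4.84e-06) and CDC20 by 0.70 (SE 0.101, adjusted p = 0.000282), both higher in HCT116 cells. TOP2A differed by -1.25 (SE 0.08535, adjusted p = 2.67e-06), CDC25C by -1.07 (SE 0.193, adjusted p = 0.00120) and CDK1 by -1.02 (SE 0.108, adjusted p = 3.89e-05). PLK1 differed by 0.39 (adjusted p = 0.01545) and CCNB2 by 0.38, while AURKA did not pass the test (0.15, adjusted p = 0.1525). The CCNB1, TOP2A, CDC25C and CDK1 differences were called as deposited and with both other scalings. With an equal sum of RPKM the CDC20 difference was 0.23, adjusted p = 0.202, PLK1 turned to -0.08 and AURKA to -0.32 (adjusted p = 0.0367), and the members split 1 higher and 33 lower, while median-ratio scaling gave 8 and 16.

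At 24 h and the highest doses, 10 and 2.5 μM, 3 differences were higher and 4 lower in HCT116 cells (9.65% and 12.9% of all genes), so the share of members called was no larger than that of all genes. With an equal sum of RPKM the split was 0 higher and 24 lower, and with all groups in 1 fit 2 were called. HMMR differed by 0.34 (SE 0.0576, adjusted p = 0.00224), CCNB1 by 0.31 (SE 0.0837, adjusted p = 0.02175), CDK1 by -0.38 (SE 0.0929, adjusted p = 0.0134) and TOP2A by -0.29 (SE 0.0504, adjusted p = 0.002685). The others called were BUB1, higher, and KIF11 and TTK, lower. An equal sum of RPKM turned HMMR to -0.05 and CCNB1 to -0.08, with TOP2A and CDK1 still called lower, and the CCNB1 call was lost without Ramos 24 h library 3 or HCT116 untreated library 3. PLK1 (0.22, adjusted p = 0.113) and AURKA (0.09, adjusted p = 0.356) were not called.

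Other genes of mitosis, listed by function, are given by their counts beside those of all genes. Of 50 further mitotic genes, 31 fell and 6 rose in HCT116 cells at 2 μM and 6 h, where 31.8% and 15.5% of all genes did, with a median of -0.35 against -0.12 for all genes. KNL1, the kinetochore scaffold, went from 25.7 to 14.3 RPKM on average (-0.82, adjusted p = 0.000121), KIF14 from 15.2 to 8.61 RPKM (-0.79) and ESPL1, which encodes separase, from 16.9 to 9.69 RPKM (-0.78), while TROAP rose from 27.6 to 41.3 RPKM (0.57). In Ramos cells at 2.5 μM and 6 h, 20 of the 49 tested rose and 5 fell, where 17.3% and 10.7% of all genes did, with a median of 0.17 against 0.03, so the share that fell was near that of all genes. The kinetochore genes SPC25 (6.63 to 11.7 RPKM, 0.78), SPC24 (37.2 to 56.4 RPKM, 0.59) and CENPI (0.55) rose most, and G2E3 (-0.40), PTTG1, which encodes securin (156 to 122 RPKM, -0.35), and KIF14 (-0.29) fell most. At 24 h in Ramos cells 1 of 49 was higher and 0 lower at 2.5 μM, near the 3.3% and 1.31% of all genes.

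The APC/C genes and the regulators of mitotic entry held calls in both directions in both lines. The APC/C list held subunits and UBE2S, the gene of a ubiquitin-conjugating enzyme. Of these 15 APC/C genes 5 rose and 6 fell in HCT116 cells at 2 μM and 6 h, and 4 rose and 1 fell in Ramos cells at 2.5 μM. Of 13 entry regulators 5 rose and 3 fell in HCT116 cells. Over all genes 15.5% rose and 31.8% fell in HCT116 cells and 17.3% and 10.7% in Ramos cells, and with lists this short the counts are given as a description. WEE1, the kinase that holds CDK1 inactive, rose from 30.7 to 43.96 RPKM (0.51, adjusted p = 0.000730), and CCNF, the gene of cyclin F, fell from 30.2 to 19.6 RPKM (-0.62). In Ramos cells 5 rose and 2 fell, led by PKMYT1, which also holds CDK1 inactive, from 40.8 to 60.9 RPKM (0.58), and by CDK7, part of the kinase that activates CDK1, from 20.8 to 13.7 RPKM (-0.58). CDK7 moved the other way in HCT116 cells, from 34.7 to 49.95 RPKM (0.52), and its difference between the lines was 1.10 (adjusted p = 4.83e-06).

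A list of 22 genes tied to transcription in G2 and M phase held transcription factors, their subunits and CDKN1A, the gene of a CDK inhibitor. Of these, 10 fell and 2 rose in HCT116 cells at 2 μM and 6 h (31.8% and 15.5% of all genes), with a median of -0.15, close to the -0.12 of all genes. In Ramos cells at 2.5 μM and 6 h 9 rose and 0 fell (17.3% and 10.7% of all genes), with a median of 0.15 against 0.03. In HCT116 cells the pocket protein gene RBL2 fell from 13.8 to 8.67 RPKM (-0.64) and E2F7 from 12.6 to 9.11 RPKM (-0.45), and TFDP1 rose from 83.01 to 109 RPKM (0.39). In Ramos cells the rise was led by E2F7 (5.03 to 9.89 RPKM, 0.91, adjusted p = 0.000161), E2F8 (5.76 to 10.2 RPKM, 0.78) and E2F1 (24.9 to 40.5 RPKM, 0.69). E2F7 differed between the lines by -1.37 (adjusted p = 1.27e-05).

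Gene models limit many of these values. In GENCODE 29, exons of 14 members overlap an exon of a gene on the other strand. Among these are CCNA2, CDC25C, PLK1, BORA, KIF18A, HMMR and ANLN. Exons of 2 members, BUB1B and CENPA, overlap one on the same strand. Whether the counting used strand is not given in the sources used here, so reads of such neighbours may be shared.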

How the data were processed

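RNA-Seq was measured in 30 libraries of HCT116 and Ramos cells, made from total RNA after ribosomal RNA removal with a stranded kit. The authors deposited 1 table of RPKM values per gene. The submitters' processing notes name RSEM, and the aligner, genome build and annotation are not given in the sources used here. RPKM values carry no read counts, so no count model was used.

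From the deposited RPKM, log2(RPKM + 0.5) was fitted with limma 3.58.1 (R 4.3.3, lmFit and eBayes with trend) for 19 comparisons, on the libraries of the groups compared, over genes with a mean of at least 0.5 RPKM, with Benjamini-Hochberg adjustment over all genes tested. The difference between lines was the interaction term in a fit of 12 libraries. The smallest exact permutation p for 3 against 3 libraries is 0.1, so none is given. The fit was tested on simulated data. The members and lists were chosen with earlier results of these data known. Values in every library are given for CDK1, CCNB1, PLK1 and AURKA and for the called members with the largest changes and no overlap between groups, up to 4 a direction in comparisons of the highest doses with untreated cells and up to 2 in others. Up to 3 genes a direction were named from each pathway list. Some values of other members were chosen after they were seen. Each result was recomputed with 0.1 or 1 as the pseudocount, with every gene kept or a minimum mean of 2 RPKM, with median-ratio scaling, with an equal sum of RPKM, with a replicate block, with all groups in 1 fit and without each library in turn. Removal of a lowess trend on gene span was added after seeing the data. It was run only for the 6 h comparisons with untreated cells and the line difference at 6 h. Gene spans and overlaps came from GENCODE 29 and promoters from RefSeq (GRCh38.p14).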

Additional observations from a re-analysis of the deposited data

Results flagged for a closer look

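The response of some mitosis genes differed between the lines by the interaction term. At 6 h (HCT116 with 2 μM minus Ramos with 2.5 μM) it was called for 26 of 38 mitosis genes, 22 lower and 4 higher, where 28.4% and 12.2% of all genes were called. The difference was 1.10 for CCNB1, 0.70 for CDC20 and 0.39 for PLK1, and -1.25 for TOP2A, -1.07 for CDC25C and -1.02 for CDK1. Scaled to an equal sum of RPKM, PLK1 turned to -0.08. At 24 h (10 and 2.5 μM) it was called for 7 genes, 3 higher and 4 lower, no larger a share than the 9.65% and 12.9% of all genes, with 0.34 for HMMR and 0.31 for CCNB1, and -0.38 for CDK1 and -0.29 for TOP2A. Scaled to an equal sum, HMMR turned to -0.05 and CCNB1 to -0.08 and 24 members were called, all lower, while 2 were called with all groups in 1 fit. Dose, and the delivery reagent named for HCT116 cells, differ with the line and cannot be told apart from it.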

How the results depend on the processing

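Of the alternatives for single named genes, 1186 values kept their direction and side of the threshold, 93 lost a call, 11 gained one and 26 turned in sign. An equal sum of RPKM changed most, turning PLK1 to -0.25 and CCNB1 to -0.40 at 6 h (2 and 10 μM), AURKA to -0.0305 and -0.0381 at 24 h (2 and 10 μM) in HCT116 cells, CCNB1 to 0.0622 and PLK1 to 0.0022 in Ramos cells (0.5 μM, 24 h), NDC80 to 0.25 and CCNA2 to 0.30 between untreated lines, PLK1 to -0.0837 and AURKA to -0.32 for the line difference at 6 h, and HMMR to -0.0502, CCNB1 to -0.0838, PLK1 to -0.16 and AURKA to -0.30 for that at 24 h. Median-ratio scaling turned CCNB1 to -0.0461 and PLK1 to -0.0281 in Ramos cells (2.5 μM, 24 h). Leaving out 1 library, some signs turned, with CCNB1 from -0.0114 to 0.288 and PLK1 from -0.297 to 0.0733 (HCT116, 10 μM, 6 h), CCNB1 from -0.0381 to 0.0404 and PLK1 from -0.131 to 0.0123 (Ramos, 0.5 μM, 24 h), and CCNB1 from -0.0355 to 0.0516 and PLK1 from -0.0428 to 0.1001 (Ramos, 2.5 μM, 24 h). The cause was not tested.

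Apart from leaving out 1 library, given below, members called changed by over 1.5 times as follows. HCT116 2 μM at 24 h gave 10, and 6 without a filter, 6 with a replicate block and 4 with median-ratio scaling. It gave 5 with an equal sum and 0 with all groups in 1 fit. HCT116 10 μM at 24 h gave 13, and 5 with an equal sum and 3 with all groups. Ramos 0.5 μM at 6 h gave 19, and 11 with an equal sum. Ramos 2.5 μM at 24 h gave 1, and 0 without a filter, 0 with median-ratio scaling and 0 with a replicate block. It gave 21 with an equal sum and 4 with all groups. HCT116 10 μM, 24 against 6 h, gave 22, and 9 without a filter, 14 with median-ratio scaling and 5 with a replicate block. Ramos 0.5 μM, 24 against 6 h, gave 23, and 14 with an equal sum. The Ramos dose comparison at 24 h gave 1, and 0 without a filter, 16 with an equal sum and 4 with all groups. The line difference at 24 h gave 7, and 24 with an equal sum and 2 with all groups.

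Leaving out 1 library gave, at 6 h, 26 to 32 (HCT116 2 μM), 13 to 34 (10 μM), 15 to 19 (Ramos 0.5 μM) and 15 to 22 (2.5 μM) calls, and at 24 h 3 to 9, 8 to 10, 0 and 0 to 3. For 24 against 6 h it gave 25 to 29, 2 to 31, 16 to 21 and 17 to 19, for dose 0 in 3 comparisons and 0 to 2 in Ramos cells at 24 h, between untreated lines 26 to 30, and for the line differences 22 to 29 and 5 to 8.

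Replicate numbers are shared by the groups. No comparison had a correlation over 0.1 for all 3 pairs, so the libraries were not treated as paired. This does not show that pairing was absent: for HCT116 10 μM at 6 h against untreated the correlations ran from 0.0565 to 0.148. With a replicate block the calls were 29 and 23 (HCT116 2 and 10 μM, 6 h), 6 (2 μM, 24 h), 10 (10 μM, 24 h), 17 and 19 (Ramos, 6 h), 0 and 0 (24 h), 27 and 5 (HCT116, 24 against 6 h), 21 and 20 (Ramos), 1 for dose in Ramos cells at 24 h and 25 and 5 for the line differences. The block left no residual degrees of freedom between untreated lines. RPKM without counts limit what depth can show.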
